A study of Mus musculus with 5 samples.

Results

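The regions described here are H3K4me3 peaks at gene starts that were found both in untreated mouse dendritic cells and in dendritic cells given SAHA, with a tag count in each library. A promoter region was one whose midpoint lay within 1 kb of the start of the gene that the authors' list assigned to it. Of the 22255 H3K4me3 regions listed against IgG in diluent cells, 11297 were promoter regions. A pair was kept when the region overlapped exactly 1 SAHA region that overlapped no other, and when both regions had the same ends in the tables called from each library alone. That left 10103 promoter regions, 89.4% of all promoter regions, under 9730 gene names. Of those left out, 205 overlapped no SAHA region, 764 overlapped SAHA regions other than 1 to 1, and 225 lacked the same ends in a single-library table.

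The cells were grown from the bone marrow of female C57BL/6 mice aged 10 weeks, in a 7 day culture to which GM-CSF and IL-4 (10 ng/mL) were added, and CD11c selection gave a stated purity of 95%. They were kept for 12 hours with SAHA or with diluent. SAHA (vorinostat, an inhibitor of histone deacetylases) was dissolved in DMSO and given in serum-free medium at a dose labelled 500 nm. H3K4me3 was immunoprecipitated from chromatin sheared to 200 to 500 bp, with 1 library for diluent cells and 1 for SAHA cells. The strain, sex, age, culture and selection were the same in both groups. The only IgG control came from diluent cells and served the lists of both conditions. The labels do not say how many animals contributed or whether marrow was pooled.

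H3K4me3, histone H3 with 3 methyl groups on lysine 4, lies on the nucleosomes around active and poised gene starts. It is written by the SET1 and MLL methyltransferase complexes, which are drawn to unmethylated CpG islands, and removed by KDM5 demethylases. Histone deacetylase inhibitors such as SAHA act on another mark, histone acetylation, which they raise. Dendritic cells take up antigen, present it on MHC molecules and activate T cells, and their maturation is accompanied by costimulatory ligands, cytokines and chemokines.

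The diluent library held 22420200 filtered tags and the SAHA library 21428355, and the counts below were scaled to these totals. The 10103 promoter regions took 41.8% of the diluent tags and 40.7% of the SAHA tags. All called regions of each library took 62.1% and 60.1%, against 0.35% in the 606 regions of the IgG library, and 13 of the promoter regions overlapped an IgG region. The fragment length estimated by the peak caller was 163 bp in diluent and 156 bp in SAHA. All 9 dendritic cell markers examined, among them Itgax (CD11c), Flt3, Zbtb46 and H2-Ab1, had a region within 5 kb of their start in both libraries. So did all 7 macrophage and monocyte markers, 4 of 7 granulocyte and mast cell markers, 2 of 6 T cell markers (Lck and Cd28) and 4 of 5 erythroid and megakaryocyte markers. No NK cell marker of 4 had one, and of 5 B cell markers Cd79b had one in diluent and none had one in SAHA. The H3K4me3 regions alone cannot tell apart a cell type that is absent from one that is present at a low share, and a lower tag count cannot tell apart fewer cells with the mark from less mark in each cell.

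Most promoters held nearly the same share of filtered tags in both libraries, spread over a slightly wider region in SAHA. Because each library was scaled to its own tags, a rise or fall of the mark common to all regions would not show. The median promoter region held 867 tags in diluent and 798 in SAHA, before scaling. Its called width was 2280 bp in diluent and 2403 bp in SAHA at the median. Density, counted as tags per kb of called width per 1000000 filtered tags, was 16.4 at the median in diluent and 15.0 in SAHA. The log2 ratio of SAHA over diluent had a median of -0.05 for scaled tags, with quartiles of -0.17 and 0.12, and 59.1% of regions lay below 0. For tags per kb the median was -0.12, with quartiles of -0.25 and 0.05, and 69.9% of regions lay below 0. This general shift of -0.12 is the level against which gene groups are read below. Single regions ranged from -2.92 to 3.42 in tags and from -1.44 to 1.93 per kb.

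With 1 library in each group there is no replicate check, and no test between the conditions was made. Intervals given with single ratios are exact conditional binomial 95% intervals, which cover counting error only. By that error alone, 1942 regions had an interval above 0 for tags, 3160 had one below 0 and 5001 had one that held 0. Because the width was called anew in each library, a region was counted as higher or lower in SAHA only if it differed at least 1.5-fold in the same direction in both scaled tags and scaled tags per kb. By this rule 287 promoter regions were higher in SAHA (2.84% of all) and 68 were lower (0.673%). With 1.5-fold in tags alone the counts were 651 (6.44%) and 209 (2.07%), and per kb alone 313 (3.1%) and 155 (1.53%). At 2-fold in both measures the counts were 45 (0.445%) and 6 (0.0594%). Of all regions called, 80.8% were higher, and this share depends on the scaling. It was 92.7% with ratios centred on their median and 61.9% with ratios centred on the median of regions of like density, an alternative chosen after seeing the data. The density-centred ratios gave 206 higher regions (2.04%) and 127 lower ones (1.26%). Of the 287 higher regions, 192 were also called higher with the density-centred ratios, and 65 of the 68 lower regions were also called lower.

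**Figure D1:**
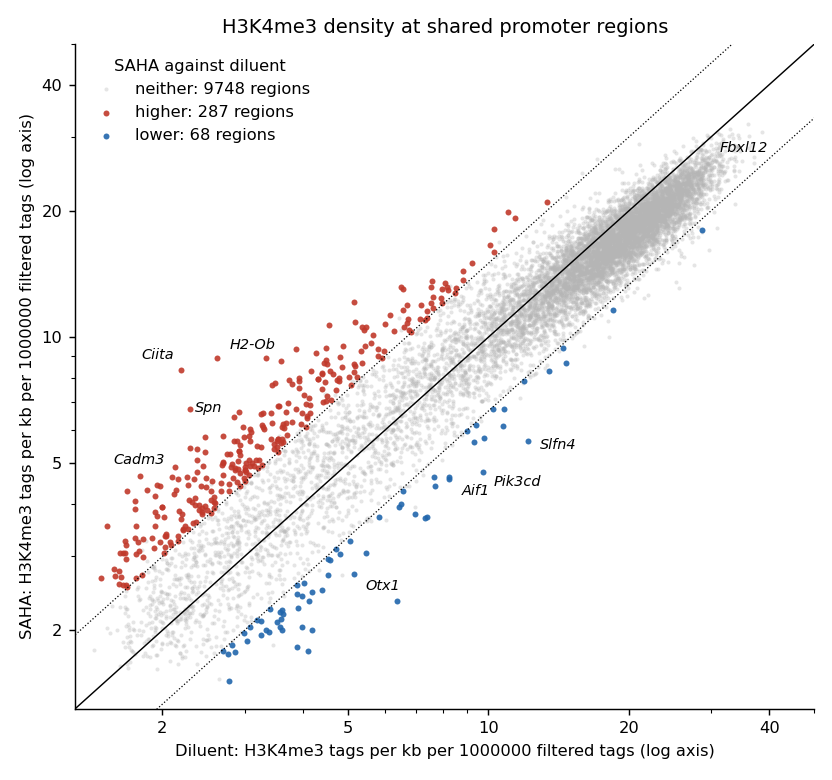
H3K4me3 tags per kb per 1000000 filtered tags at each of the 10103 shared promoter regions, in the diluent library (horizontal, log axis) and the SAHA library (vertical, log axis). The solid line marks equal density and the dotted lines 1.5-fold. The 287 regions called higher (red) and the 68 called lower (blue) lie mostly at low density, while regions of high density lie in a narrow band slightly below the line of equal density.

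The promoters that differed were mostly weakly marked ones. Regions higher in SAHA had a median of 91 tags in diluent and 188 in SAHA, and their median density went from 3.08 to 5.63. Regions lower in SAHA had a median of 142.5 tags in diluent and 65 in SAHA, and their median density went from 4.53 to 2.65. The 10103 regions were divided into density deciles by the geometric mean of their density in both libraries. The lowest 3 deciles held 279 of the 287 higher regions (97.2%) and 64 of the 68 lower regions (94.1%). In the lowest decile 131 regions were higher and 40 lower, and in the highest decile none was called in either direction. The density that sorts the regions into deciles shares its counts with the ratio, and low counts also spread a ratio more.

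The level itself moved with density too. The median log2 ratio per kb was 0.14 in the lowest decile, 0.12 in the second, -0.02 in the third and -0.13 in the fifth. It was -0.19 in both the ninth and the highest decile. The median log2 ratio of tags went from 0.20 in the lowest decile to -0.10 in the highest, while the width ratio was between 0.06 and 0.08 in every decile. Sorted by the diluent density alone, the per-kb median went from 0.22 to -0.24. Sorted by the SAHA density alone, it was 0.05 in the lowest decile, 0.11 in the second and -0.15 in the highest. The lowest decile therefore lay above the highest under all 3 ways of sorting, with a smaller gap when the SAHA library did the sorting.

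**Figure D2:**
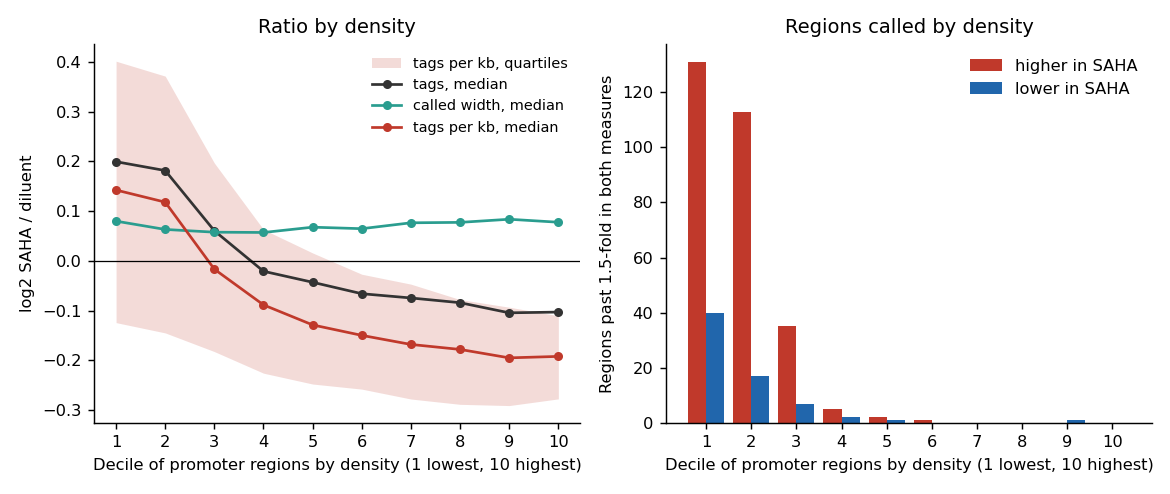
Left, the median log2 SAHA/diluent ratio by decile of density (1 lowest, 10 highest) for tags, called width and tags per kb, with the quartiles of tags per kb shaded. Right, the number of regions called higher or lower in each decile. The per-kb median runs from 0.14 in the lowest decile to -0.19 in the highest, the width line stays between 0.06 and 0.08, and the called regions crowd into the lowest 3 deciles.

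The strongest promoters of the diluent cells kept high density in SAHA and were called in neither direction. Fbxl12, an F-box subunit of a ubiquitin ligase, had the highest density in diluent at 38.6 and had 30.8 in SAHA. Psmb10, a subunit of the immunoproteasome, had 37.1 and 26.9. Hadhb, of mitochondrial fatty acid oxidation, had 36.6 and 28.6. Myl6, a myosin light chain, had 36.3 and 30.2, and Csnk2b, the regulatory subunit of casein kinase II, had 36.2 and 28.2. All 5 were lower per kb in the SAHA library, from -0.46 at Psmb10 to -0.27 at Myl6. They were chosen for their high diluent values, so a lower SAHA value at them is partly fixed by that choice.

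The widening lay mostly on the transcribed side. Along the direction of transcription, the downstream edge of the region lay farther out in SAHA at 71.6% of promoters, by 82 bp at the median. The upstream edge lay farther out at 54.5%, by 11 bp at the median. The point of most tags, the summit, lay 181 bp downstream of the start at the median in diluent and 207 bp in SAHA. It moved by no more than 200 bp at 82.1% of promoters and by over 1 kb at 182. At regions called higher, the downstream edge lay farther out in 91.6% and the upstream edge in 70.7%, with medians of 173 and 69 bp. At regions called lower, these shares were 14.7% and 30.9%, and the medians were -94.5 and -91 bp. A called edge depends on the tag count of its library, so at called regions the edges and the counts are not separate measures. Across the 10103 regions, which share 2 libraries and are not independent, Pearson's r between the log2 ratios of tags and width was 0.64, and Spearman's rho 0.47. Between tags per kb and width they were 0.05 and -0.15.

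**Figure D3:**
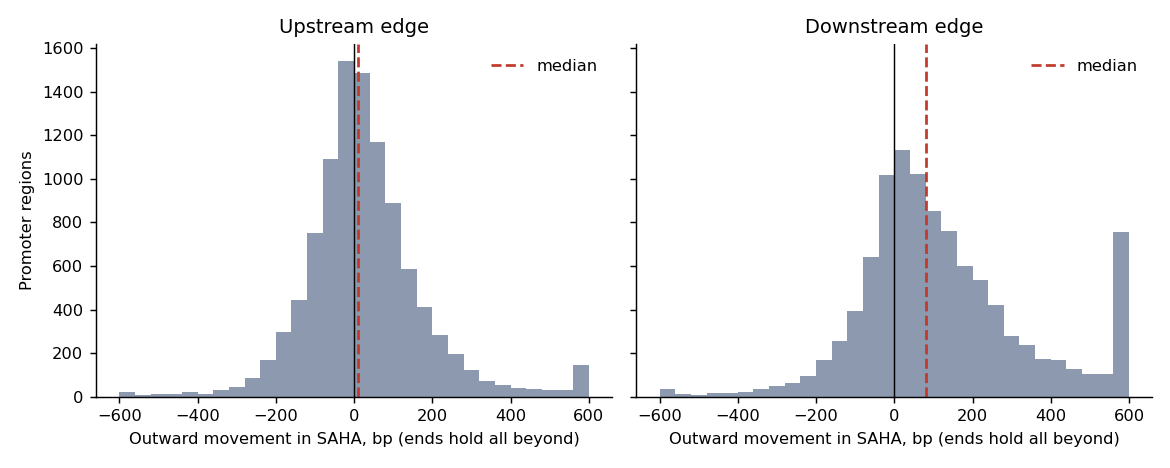
Outward movement in bp of the upstream (left) and downstream (right) edge of the called region in SAHA against diluent, over 10103 promoter regions. The end bars hold all movements beyond 600 bp, solid lines mark 0 and dashed lines the median. The upstream edge centres near 0, at 11 bp, and the downstream edge is shifted and skewed outward, with a median of 82 bp.

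Gains were ranked over called regions of named genes with at least 50 tags in each library. The largest per kb were at Ciita, H2-Ob, Acap1, Lamb3, Klrk1 and Itgb7, all with little mark in diluent. Some called regions left out of the ranking had ratios as large, up to 3.42 for tags. The region with the largest ratio per kb lay at a start of Ciita, the master activator of MHC class II transcription, at chr16:10480119-10482154 (mm9). It held 100 tags over 2036 bp in diluent and 740 tags over 4127 bp in SAHA. The log2 ratio was 2.95 for tags (interval 2.65 to 3.27) and 1.93 per kb, and density went from 2.19 to 8.37. Its midpoint lay 971.5 bp downstream of the listed start, just inside the 1 kb limit. Ciita has several promoters that are used in different cell types, and a stronger Ciita region lay downstream at chr16:10487882-10491989. That region held 825 tags in diluent and 1788 in SAHA, with ratios of 1.18 for tags and 0.55 per kb, just short of the rule. Tags were thus higher in SAHA at both Ciita starts, and the weaker start differed more.

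H2-Ob, the beta chain of H2-O, which restrains peptide loading of MHC class II, followed at chr17:34376344-34377449. It held 65 tags over 1106 bp in diluent and 408 over 2134 bp in SAHA. The ratio was 2.72 for tags (interval 2.33 to 3.12) and 1.77 per kb. Klrk1, which encodes the NKG2D receptor of NK cells and some T cells, had 151 and 265 tags in a region that was narrower in SAHA, 1476 bp against 1155 bp. Its ratio was 0.88 for tags (interval 0.58 to 1.17) and 1.23 per kb. Itgb7, the integrin beta chain of gut-homing lymphocytes, had 97 and 321 tags, with 1.79 for tags (interval 1.46 to 2.13) and 1.23 per kb. Spn, the leukocyte surface sialoglycoprotein CD43, had 130 and 655 tags, and its region went from 2040 to 4743 bp. Its ratio was 2.40 for tags and 1.18 per kb, so the tags at Spn differed more than their density. Itgb7 and Spn encode surface proteins of leukocytes, and both were among the 12 largest gains per kb.

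The other regions of the 12 largest gains belonged to genes of varied roles. Acap1, a regulator of the small GTPase Arf6 in membrane recycling, had 112 and 354 tags (1.41 per kb). Lamb3, a laminin chain of basement membranes, had 93 and 296 (1.28 per kb). Cadm3, a cell adhesion molecule best known in neurons, had 56 and 228 (1.20 per kb). These 3 regions had a density between 2.13 and 3.86 in diluent and between 4.89 and 9.35 in SAHA. Srsf13b, a splicing regulator, had 51 and 105 tags (1.20 per kb), and Ttbk1, a kinase of tau and tubulin, had 71 and 171 (1.18 per kb). Vwf, the von Willebrand factor of endothelium and platelets, had 122 and 321 (1.16 per kb). Syt17, of the synaptotagmin family, had 123 and 312 (1.15 per kb). By tags alone, Ccdc64b joined the 5 largest of this ranking, with 77 tags in diluent and 348 in SAHA (2.24). Its region also went from 1201 to 3370 bp, and its ratio per kb was 0.75. All 13 of these higher regions lay in the lowest 2 deciles of density, and none overlapped a STAT3 region of either condition.

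The letters before the starts of 4 of these genes are shown, as the sequence next to the starts with the largest gains among the genes with a single RefSeq start. The called regions of H2-Ob, Klrk1 and Itgb7 reached over 250 bp upstream of the listed start in both libraries. The Cadm3 region began 4 bp downstream of it in diluent and reached 39 bp upstream in SAHA, so its window lies almost wholly outside the region counted. They are the 250 bases upstream of the RefSeq start in GRCm38.p6, read 5′ to 3′ on the gene's strand, with CG dinucleotides in capitals. The SET1 and MLL complexes are drawn to clusters of such dinucleotides. H2-Ob (chr17:34238655-34238904, plus strand) has 2 in this window, Klrk1 (chr6:129623865-129624114, minus) 4, Itgb7 (chr15:102231936-102232185, minus) 5 and Cadm3 (chr1:173367696-173367945, minus) 11.
H2-Ob: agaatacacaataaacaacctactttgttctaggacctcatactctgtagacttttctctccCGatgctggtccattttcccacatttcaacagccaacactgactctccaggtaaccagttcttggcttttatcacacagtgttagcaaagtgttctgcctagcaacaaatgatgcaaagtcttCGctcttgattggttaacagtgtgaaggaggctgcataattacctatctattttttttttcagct
Klrk1: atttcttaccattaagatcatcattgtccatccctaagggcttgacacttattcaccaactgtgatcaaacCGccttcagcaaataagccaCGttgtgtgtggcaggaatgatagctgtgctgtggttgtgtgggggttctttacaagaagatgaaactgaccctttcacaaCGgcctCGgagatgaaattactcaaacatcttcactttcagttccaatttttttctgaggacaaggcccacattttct
Itgb7: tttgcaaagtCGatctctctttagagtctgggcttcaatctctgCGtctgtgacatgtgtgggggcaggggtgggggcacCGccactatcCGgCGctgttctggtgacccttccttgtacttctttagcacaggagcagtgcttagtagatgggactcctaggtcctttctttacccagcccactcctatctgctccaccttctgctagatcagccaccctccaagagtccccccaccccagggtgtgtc
Cadm3: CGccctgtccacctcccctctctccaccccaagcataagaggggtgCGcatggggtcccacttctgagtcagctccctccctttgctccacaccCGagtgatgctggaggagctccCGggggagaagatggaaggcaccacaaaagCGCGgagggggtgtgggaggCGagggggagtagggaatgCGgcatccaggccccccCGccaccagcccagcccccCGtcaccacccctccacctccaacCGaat
The median of all 32851 RefSeq promoter windows of this length was 6, with quartiles of 2 and 16. H2-Ob, Klrk1 and Itgb7 lay below that median and Cadm3 above it.

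Losses were ranked in the same way, while over all called regions they went down to -2.92 for tags and -1.44 per kb. The largest ranked losses per kb were at Slfn4, Pik3cd, Hist1h2ba, Otx1, Aif1 and Slamf8. Slfn4, a Schlafen family gene of macrophages and other myeloid cells, led them at chr11:82988355-82992202. It held 1047 tags in diluent and 451 in SAHA over nearly the same width, 3848 and 3728 bp. The ratio was -1.15 for tags (interval -1.31 to -0.99) and -1.10 per kb, and density went from 12.1 to 5.65. The Schlafen genes are close copies of each other, and no source used here says how reads shared between copies were placed, so the value is uncertain. Pik3cd, the catalytic delta subunit of leukocyte PI3 kinase, was lower at 1 of its 2 promoter regions, chr4:149049283-149050810, with 334 tags in diluent and 147 in SAHA (-1.12 for tags and -1.03 per kb). The other, wider Pik3cd region held 2557 tags in diluent and 3084 in SAHA (0.34 and 0.29), so the ratios of its 2 regions lay on opposite sides of 0.

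Aif1, the calcium-binding protein IBA1 of macrophages and microglia, had 383 tags in diluent and 205 in SAHA over 2075 and 2085 bp, -0.84 in both measures (interval for tags -1.09 to -0.59). Slamf8, a SLAM family receptor of myeloid cells, had 295 and 79 tags, and its region went from 2413 to 1207 bp. Its ratio was -1.84 for tags and -0.84 per kb, so its tags and its width were both lower. Hist1h2ba, a testis histone H2B gene, had 88 and 53 tags (-0.67 for tags, interval -1.19 to -0.16, and -0.98 per kb). It is 1 of many closely related histone genes, which makes its count uncertain. Otx1, a homeobox factor of the developing brain, had 420 and 196 tags (-1.03 and -0.92). The gene named cdc6 in the authors' list, which loads the replicative helicase onto DNA, had 374 and 221 tags (-0.69 and -0.77).

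The other 5 of the 12 deepest losses per kb were at Zfp317, Hpdl, Kank1, Elovl4 and Tc2n. Zfp317, a zinc finger protein, had 558 tags in diluent and 337 in SAHA (-0.66 for tags and -0.76 per kb), and its region overlapped a STAT3 region in both conditions. Hpdl, a mitochondrial dioxygenase-like protein, had 384 and 228 (-0.69 and -0.81). Kank1, a cytoskeletal regulator, had 120 and 52 tags (-1.14 and -0.81). Elovl4, an elongase of very long fatty acids, had 99 and 50 (-0.92 and -0.79), and Tc2n had 127 and 55 (-1.14 and -0.76). By tags, Adamts17, a secreted metalloprotease, joined the 5 deepest of this ranking with 207 and 91 (-1.12 and -0.70). The lower regions named here ranged in diluent density from 3.58 at Kank1 to 14.6 at Zfp317, and the 12 largest gains ranged from 2.13 to 4.56. The choice by ratio, with at least 50 tags required in each library, partly fixes that losses start higher than gains.

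**Figure D4:**
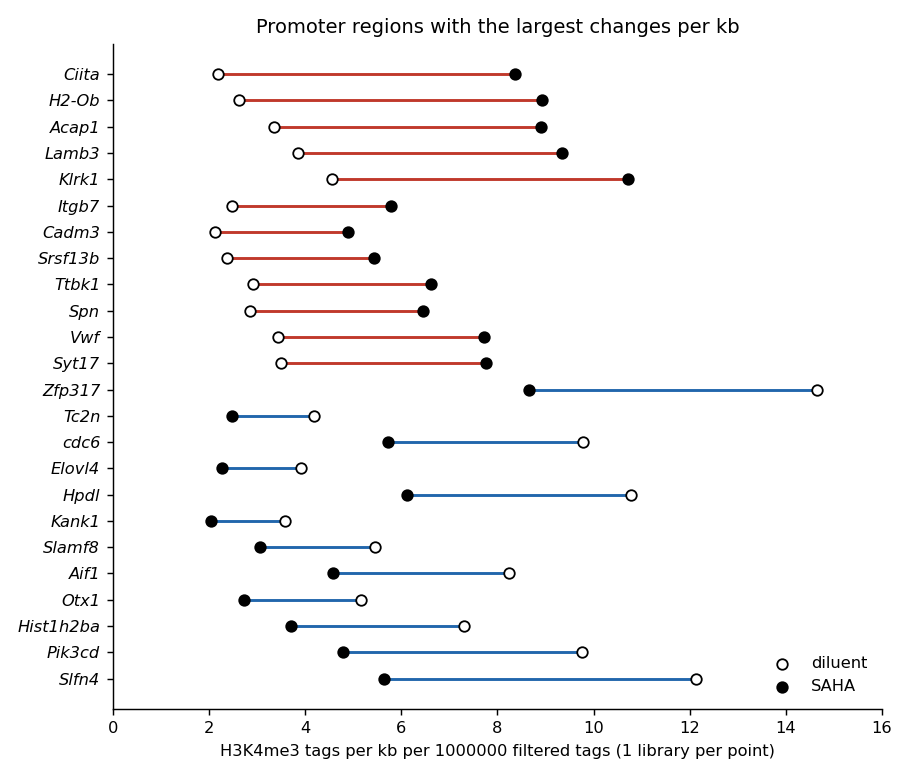
H3K4me3 density (tags per kb per 1000000 filtered tags) in the diluent library (open) and the SAHA library (filled) at the 12 largest gains (red lines) and the 12 largest losses (blue lines) per kb among called regions of named genes (no predicted or clone entries) with at least 50 tags in each library. Gains start between 2.13 and 4.56, and losses start between 3.58 and 14.6.

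The same upstream window is shown for the largest losses with a single RefSeq start, with CG dinucleotides in capitals. The region of Hist1h2ba began 20 bp downstream of the listed start in diluent and reached 178 bp upstream in SAHA, and that of Slamf8 reached 525 bp upstream in diluent and 166 bp in SAHA. The Slfn4 and Aif1 regions reached over 250 bp upstream in both libraries. Slfn4 (chr11:83174936-83175185 in GRCm38.p6, plus strand) has 3, Hist1h2ba (chr13:23934157-23934406, minus) 5, Aif1 (chr17:35176053-35176302, minus) 1 and Slamf8 (chr1:172590569-172590818, minus) 4.
Slfn4: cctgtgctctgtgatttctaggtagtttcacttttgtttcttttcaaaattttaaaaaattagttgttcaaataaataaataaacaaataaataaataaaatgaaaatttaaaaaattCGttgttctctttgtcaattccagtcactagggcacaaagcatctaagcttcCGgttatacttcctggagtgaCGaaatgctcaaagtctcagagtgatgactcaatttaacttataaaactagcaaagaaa
Hist1h2ba: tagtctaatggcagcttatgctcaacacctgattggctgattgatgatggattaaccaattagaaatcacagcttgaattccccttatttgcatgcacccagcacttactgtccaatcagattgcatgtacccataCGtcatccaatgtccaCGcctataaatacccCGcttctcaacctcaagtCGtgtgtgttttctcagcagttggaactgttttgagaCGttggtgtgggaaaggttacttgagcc
Aif1: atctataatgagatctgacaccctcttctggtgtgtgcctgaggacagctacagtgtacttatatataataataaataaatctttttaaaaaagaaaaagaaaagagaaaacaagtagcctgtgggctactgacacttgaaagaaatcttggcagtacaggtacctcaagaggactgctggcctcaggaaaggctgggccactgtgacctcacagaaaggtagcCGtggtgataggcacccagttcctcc
Slamf8: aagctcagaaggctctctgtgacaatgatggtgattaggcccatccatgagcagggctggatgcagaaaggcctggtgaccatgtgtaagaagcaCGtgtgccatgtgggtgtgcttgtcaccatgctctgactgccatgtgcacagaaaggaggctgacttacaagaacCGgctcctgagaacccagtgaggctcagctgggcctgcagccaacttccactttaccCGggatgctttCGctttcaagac
All 4 windows lie below the median of 6 for RefSeq promoters.

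Beside CG itself, 10 motifs were searched on both strands of these windows. The ISRE core (TTTC, any 2 letters, TTTC), an element bound by interferon-activated factors, was found at Aif1 and Slamf8, and 2.98% of all RefSeq windows hold it. The CCAAT box (CCAAT, 33.8% of all windows) was found at H2-Ob, Klrk1 and Hist1h2ba, and the TATA box (TATAAA, 12.4%) at Slfn4 and Hist1h2ba. AP-1 (TGANTCA, 6.75%) was found at Cadm3 and Slfn4. The PU.1 core (AGGAAGT, 7.69%) and ETS (CCGGAAG, 6.91%), which both hold GGAAG, were found at Slfn4 as separate matches. The E-box CACGTG (6.02%) was found at Slamf8. The GC box (GGGCGG, 32.7%), the GAS element of STAT factors (TTCNNNGAA, 7.02%) and CRE (TGACGTC, 2.78%) were found in none of the 8 windows, and Itgb7 held none of the 10 motifs. A match is a run of letters and not a bound site, and a missing match says only that these letters are not in this window. A promoter window with a single RefSeq start was found for 75.9% of all promoter regions and for 67.2% of those called higher. This is below the 80% set for a comparison over sets, so the comparison of CG and motif content between called and other regions is void.

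Of the 12 counted regions of listed MHC class II and antigen presentation genes, 3 were higher, at H2-Ob, H2-Oa and the weaker start of Ciita, and none was lower. Over all promoters 2.84% were higher and 0.673% lower, and with so few regions 1 call more or less moves a list's share widely. Of 25 listed genes of MHC class II and antigen presentation, 13 had a promoter region in diluent and 11 had a counted pair. For gene counts here and in the other lists, the pair with most tags stood for a gene with several. Of the 11, 2 were then higher (H2-Ob and H2-Oa) and none was lower, and their median per kb was 0.00 beside -0.12 over all promoters. H2-Oa, the partner chain of H2-Ob, had 378 tags in diluent and 821 in SAHA (1.18 for tags and 0.62 per kb). H2-Ab1, a chain of the classical class II molecule, had 2570 and 3145 tags but a density of 23.9 and 20.5 (-0.22 per kb). H2-DMb1, of the peptide exchange factor H2-M, had 1145 and 1662 tags (0.60 for tags and 0.13 per kb). Among class I genes, H2-K1 had 2645 and 2577 tags and H2-D1 2581 and 2882, with ratios per kb of -0.01 and 0.00, and H2-K1 and H2-D1 are close copies whose counts are uncertain. Tap2, the peptide transporter, had 1871 and 1998 tags (0.18 per kb). The list thus ranged from -0.46 at Psmb10 to 1.77 at H2-Ob, and its strongest promoters lay near 0 or below.

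The lists of costimulation genes, of cytokines and of chemokines each held 1 higher gene and none that was lower. Over all promoters 2.84% were higher and 0.673% lower. The lists had 6, 6 and 8 counted genes, so 1 call sets the share of each. Outside these lists, Cd276, Il11, Il16 and Cxcl5 are genes of the same kinds that were called higher. They were picked because they were higher, so they add nothing to the list counts. Il11 (31 tags in diluent and 95 in SAHA) and Cxcl5 (45 and 161) had fewer diluent tags than the 50 asked of named genes. Cd70, a ligand that costimulates T cells through CD27, had 124 tags in diluent and 228 in SAHA (0.94 for tags and 0.90 per kb) and was the only one called of 6 counted among 20 listed costimulation and maturation genes. Tnfsf9, the 4-1BB ligand, had 921 and 1621 tags (0.88) over a wider region, so its ratio per kb was 0.15. Icosl, the ligand of ICOS, had 901 and 1335 tags, 0.63 for tags and -0.09 per kb. Pdcd1lg2, the inhibitory ligand PD-L2, had 67 and 106 (0.73 and 0.27). The median of these 6 was 0.68 for tags and 0.03 per kb, so the measure chosen sets how far the list stands from all promoters.

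Ebi3, the subunit that IL-27 and IL-35 share, was the only cytokine gene called of 6 counted among 22, with 363 tags in diluent and 1039 in SAHA (1.58 for tags and 0.99 per kb). Il27, the other subunit of IL-27, had 768 and 523 tags (-0.49 and -0.40), not enough for a call. Il12a had 217 and 418 tags (1.01 and 0.20), and Osm, an IL-6 family cytokine, had 2294 and 2067 (-0.09 and -0.21). The median of the 6 was -0.01 per kb, between -0.40 and 0.99. Ccl17, which draws CCR4-bearing T cells, was the only one called of 8 counted among 25 chemokine and receptor genes, with 125 and 283 tags (1.24 and 0.95). Ccl2 had 207 and 327 tags (0.45 per kb), Cxcl10 345 and 558 (0.42) and Cxcl2 414 and 541 (0.35). Ccl7 had 138 and 94 (-0.33 per kb), and Ccl4, named ScyA4 in the authors' list, had 606 and 541 (-0.36). The median per kb of the 8 was 0.25, and 6 of them lay above the median of all promoters.

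The listed Toll-like receptor, NF-kB, JAK-STAT and interferon-stimulated genes held no called region, beside 2.84% higher and 0.673% lower over all promoters. Of 34 listed Toll-like receptor and NF-kB genes 18 were counted, with a median per kb of -0.29, and 4 lay above the median of all promoters. Tlr9, the receptor of CpG DNA, had 813 tags in diluent and 459 in SAHA (-0.76 for tags and -0.41 per kb). Tlr1 had 759 and 480 (-0.60 and -0.54), and Ikbkg, the regulatory subunit of the IKK complex, had 701 and 574 (-0.22 and -0.55). Nfkbiz, an inducible cofactor of NF-kB, had 779 and 965 (0.37 and 0.41) and was the highest of the 18. With density-centred ratios the median of this list was -0.13, against 0 over all promoters.

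Of 35 listed JAK-STAT genes 18 were counted, with a median per kb of -0.08, and 13 lay above the median of all promoters. Stat5b, a transducer of GM-CSF signals, had 1058 tags in diluent and 1398 in SAHA (0.47 and 0.32). Tyk2, a Janus kinase, had 1403 and 1370 tags over a wider region, so its ratio was 0.03 for tags and -0.51 per kb. Stat6, which carries the IL-4 signal, had 2346 and 2079 (-0.08 per kb). Of 33 interferon-stimulated genes 9 were counted, with a median per kb of -0.19. Ifitm2, a membrane protein that restricts viruses, had 1265 and 1983 tags (0.71 and 0.43) and was called higher with the density-centred ratios. Gbp2, an interferon-induced GTPase, had 1828 and 1914 (0.13 and -0.49). Gbp10, a related gene outside the list and named after its value was seen, was higher, with 169 and 325 tags. These 3 genes have close copies, so their values are uncertain.

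**Figure D5:**
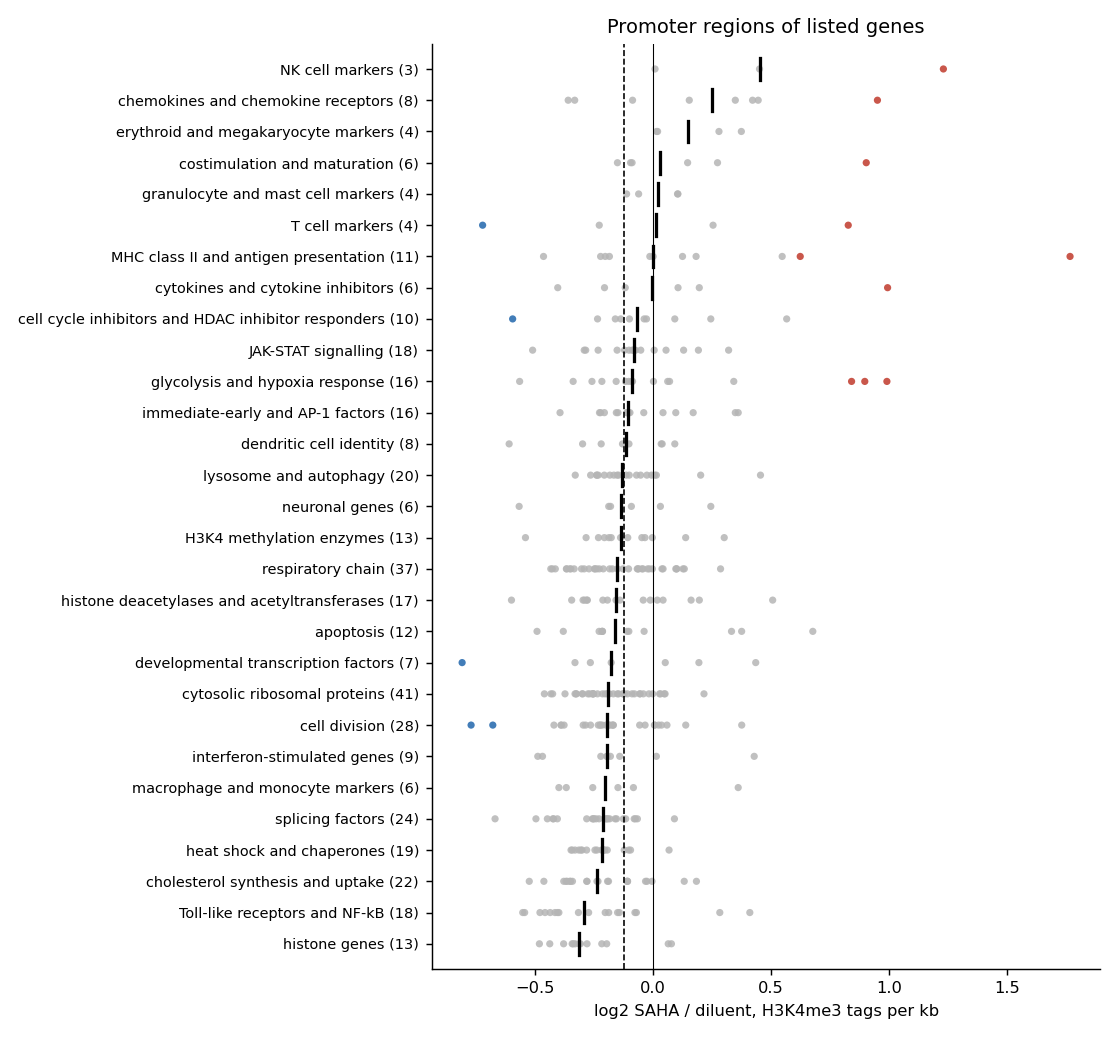
Log2 ratio of SAHA over diluent in H3K4me3 tags per kb for the genes of 29 lists with a counted promoter region, 1 point per gene (number counted in brackets). Red and blue points are regions called higher and lower, black bars are list medians, the solid line is 0 and the dashed line is the median of all promoters, -0.12. List medians lie between -0.31 (histone genes) and 0.45 (NK cell markers, 3 genes), and most points are grey.

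The genes that write, read and erase acetylation and H3K4 methylation were not called, beside 2.84% higher and 0.673% lower over all promoters. Of 28 listed histone deacetylase and acetyltransferase genes 17 were counted, with a median per kb of -0.16. Hdac11 had 131 tags in diluent and 227 in SAHA (0.86 for tags and 0.51 per kb), the highest of the 17. Hdac1 had 1571 and 1622 tags (-0.04 per kb), Hdac2 995 and 910 (0.04) and Hdac3 1274 and 1292 (0.16). Kat6a, named Myst3 in the authors' list, an acetyltransferase of H3, had 545 and 367 tags (-0.51 and -0.60) and was the lowest. The promoters of these 3 deacetylases, which SAHA inhibits, thus lay close to 0 in both measures. Of 22 H3K4 methylation genes 13 were counted, with a median per kb of -0.14. Men1, the menin subunit of MLL complexes, had 930 and 1153 tags (0.30 per kb), and Rbbp5, a core subunit, had 1442 and 1157 (-0.54). Kdm5b and Kdm5c, 2 demethylases of the mark, had ratios per kb of 0.00 and -0.21.

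Among 24 listed cell cycle inhibitors and genes known to respond to deacetylase inhibitors, 10 were counted and 1 was lower. Over all promoters 2.84% were higher and 0.673% lower, and 1 call moves the share of so short a list widely. Gsn, the actin-severing protein gelsolin, had 120 tags in diluent and 64 in SAHA (-0.84 for tags and -0.59 per kb). Cdkn1c, which encodes the inhibitor p57, had 37 and 55 tags (0.64 and 0.57), just short of the rule per kb. Mt1, a metallothionein, had 1775 and 1430 tags (-0.23 per kb), and Mt2 had 1129 and 1181 (-0.04). The median of the 10 was -0.07 per kb. Of 39 cell division genes 28 were counted and 2 were lower, cdc6 and Cdc25c. Cdc25c, the phosphatase that activates CDK1 at mitosis, had 483 and 261 tags (-0.82 and -0.68). Ccnd3, cyclin D3, had 355 and 554 (0.71 and 0.38), and Ccnb1, cyclin B1, had 885 and 602 (-0.49 and -0.42). The median of the 28 was -0.19 per kb, and none was higher, beside 2.84% over all promoters.

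Among glycolysis and hypoxia response genes, 16 of 28 listed were counted, 3 were higher and none was lower, beside 2.84% and 0.673% over all promoters. Slc2a3, the glucose transporter GLUT3, had 150 tags in diluent and 370 in SAHA (1.37 for tags and 0.99 per kb). Eno2, the neuronal form of enolase, had 289 and 637 (1.21 and 0.84), and Pdk4, which turns off pyruvate dehydrogenase, had 65 and 125 (1.01 and 0.90). All 3 had a density between 2.70 and 6.68 in diluent. They lay in the lowest 3 density deciles, where 13.0%, 11.2% and 3.47% of all regions were higher. The strongly marked enzymes of the same pathway lay near all other promoters: Ldha had 2110 and 2015 tags (-0.09 per kb) and Aldoa 3141 and 3068 (-0.12). The median of the 16 was -0.09 per kb.

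Of the lists of genes that every cell uses, those given here held no called region, beside 2.84% higher and 0.673% lower over all promoters. These lists were densely marked, with median diluent densities from 17.6 (cholesterol synthesis and uptake) to 23.2 (respiratory chain). From the sixth decile of density upward, only 1 region of all promoters was higher (in the sixth) and 1 lower (in the ninth). The 41 counted ribosomal protein genes had a median per kb of -0.19, between -0.46 at Rpl4 and 0.22 at Rpl38, and 0.00 with density-centred ratios. The 37 respiratory chain genes had -0.15, the 24 splicing factors -0.21, the 19 heat shock and chaperone genes -0.22 and the 20 lysosome and autophagy genes -0.13. The 22 genes of cholesterol synthesis and uptake had -0.23. Hnrnpa1, a splicing regulator, had 2110 tags in diluent and 1695 in SAHA (-0.25 for tags and -0.67 per kb) and was the lowest of these genes per kb. Histone genes had the lowest median of any list, -0.31 over 13 genes, with 2 above the median of all promoters, and -0.19 with density-centred ratios. Hist1h1c, a linker histone, had 1782 and 1266 tags (-0.43 and -0.48), and H2afx, the variant phosphorylated at DNA breaks, had 1099 and 914 (-0.20 and 0.06). Histone genes are close copies, so their single values are uncertain. Hist1h2ba, which was called lower, was not counted in this list. The density-centred ratios put some medians that lay below 0 on the other side: JAK-STAT genes at 0.07, cell cycle inhibitors and inhibitor responders at 0.07, glycolysis at 0.10, H3K4 methylation at 0.04, the respiratory chain at 0.02, lysosome and autophagy at 0.02 and cytokines at 0.03.

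Stress, survival and immediate-early genes also lay close to all promoters. The 12 apoptosis genes had a median of -0.16 per kb and none was called, beside 2.84% higher and 0.673% lower over all promoters. Tnfrsf10b, the death receptor of TRAIL, had 379 tags in diluent and 530 in SAHA (0.55 for tags and 0.68 per kb) and missed the rule only in tags. Bmf had 1467 and 1880 tags (0.42 and 0.38), and Trp53, which encodes p53, had 3441 and 2668 (-0.30 and -0.38). The 16 immediate-early and AP-1 genes had -0.11 (0.01 when density-centred), from Nr4a1 with 362 and 469 tags (0.36 per kb) to Atf4 with 2808 and 2257 (-0.39). Jun, Fos and Junb lay at -0.22, -0.10 and -0.21 per kb.

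Among markers of cell types other than dendritic cells, Klrk1, Cd28 and a second, weaker promoter region of Lyz2 were higher, and Gata3 was lower. Klrk1 was 1 of 3 counted NK cell marker regions, and the Lyz2 region 1 of 7 of macrophages and monocytes. Cd28 and Gata3 were among 4 T cell marker regions. Over all promoters 2.84% were higher and 0.673% lower. The 8 counted genes of dendritic cell identity had a median of 0.05 for tags and -0.12 per kb, and 4 lay above the median of all promoters. They ranged per kb from -0.61 at Dpp4 to 0.09 at Klf4. Itgax, the CD11c used to select the cells, had 192 tags in diluent and 141 in SAHA (-0.38 for tags and -0.13 per kb), and Flt3, the receptor of a dendritic cell growth factor, had 320 and 208 (-0.56 and -0.30). Macrophage and monocyte markers had -0.20 over 6 genes, none called by its main region. Their summed density went from 73.9 to 63.2, and that of the 8 dendritic cell identity genes from 85.8 to 77.9. The weaker region of Lyz2, the lysozyme gene of myeloid cells, had 34 tags in diluent and 62 in SAHA (0.93 for tags and 0.79 per kb), while its main region had 947 and 1221 (0.43 and -0.15). Mertk, a receptor for apoptotic cells, had 1468 and 896 tags (-0.65 and -0.37). Granulocyte and mast cell markers had 0.02 over 4 genes, with a summed density of 31.4 and 30.9, and erythroid and megakaryocyte markers 0.15 over 4, with 31.1 and 34.2.

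Of 4 counted T cell markers, 1 was higher and 1 lower, and their summed density was 27.4 in diluent and 27.9 in SAHA. Cd28 had 19 tags in diluent, the fewest named here, and 195 in SAHA over a far wider region (3.42 for tags and 0.83 per kb). Gata3, a factor of T helper cells, had 573 and 297 (-0.88 and -0.72). Of 3 counted NK cell markers only Klrk1 was higher. The summed density of the list went from 8.50 to 15.3, and most of this was Klrk1 itself, which went from 4.56 to 10.7. No B cell marker had a counted promoter pair. Of 7 developmental factors Isl2, a homeobox gene of motor neurons, was lower, with 137 and 39 tags (-1.75 and -0.81), and of 6 neuronal genes none was called (1 was lower with the density-centred ratios). The defining NK cell markers Ncr1, Klrb1c, Eomes and Prf1 and the T cell markers Cd3e, Cd4, Cd8a and Zap70 had no listed region within 5 kb of their start in either library. Over all 402 counted genes of the lists, 10 were higher (2.49%) and 5 lower (1.24%), beside 2.84% and 0.673% over all promoters.

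Regions called in either direction seldom overlapped a STAT3 region, as did other weakly marked promoters. A STAT3 region of the SAHA list overlapped 11.6% of all promoter regions and 3.83% of those called higher (11 of 287, exact binomial 95% interval 1.93 to 6.75%). The share was 5.88% of those called lower (4 of 68, interval 1.63 to 14.4%). It moved with density, from 3.56% in the lowest decile to 17.1% in the highest. Within the lowest 3 deciles, 3.58% of the higher regions (interval 1.73 to 6.49%) and 5.65% of the uncalled regions (interval 4.81 to 6.60%) overlapped one, and these intervals overlap. The intervals take regions as independent although all come from the same libraries, so they do not test a difference. Overlap was counted over the joined span of the diluent and SAHA regions, which is wider where the SAHA edges lay farther out. STAT3 regions of the diluent list overlapped 3.65% of all promoter regions and 1.05% of the higher ones (3 of 287). Promoters that overlapped a SAHA STAT3 region had a median ratio per kb of -0.16 and the rest -0.12, and their median densities were 17.9 and 15.4.

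Shared H3K4me3 regions away from starts passed the rule at a higher share than those at starts. The 7600 counted pairs with a midpoint beyond 1 kb of a listed start had a median of 91 tags in diluent and 107 in SAHA. Their median log2 ratio was 0.11 for tags and 0.05 per kb, against -0.05 and -0.12 at promoters. Of them 8.37% were higher by the same rule and 2.24% lower, against 2.84% and 0.673% at promoters. They also held far fewer tags, and the part of density in this difference was not tested. The medians on both sides of the 1 kb limit were close: the 250 regions with a midpoint 900 to 1000 bp from the start had medians of 0.01 for tags and -0.10 per kb, and the 180 regions at 1000 to 1100 bp had 0.03 and -0.11. Among chromosomes the median per kb lay between -0.16 and -0.10.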

How the data were processed

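The submitters' processing notes name BWA and mm9, with no aligner version. Per the file headers, the authors ran MACS 1.4.0rc2 on every library by itself with no control track (p-value cutoff 1e-05, up to 2 duplicates kept at 1 position). Tables deposited for single libraries give each region's tag count, summit and fold enrichment, a ratio over local background that was not used in the results. The authors' deposited lists against IgG give a score and 1 gene per region, with no record of the calling steps in the sources used here. The score was not used to choose or rank regions.

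Counts were scaled to the filtered tags in the headers. Density is tags per kb of called width per 1000000 filtered tags. Regions were called higher or lower at 1.5-fold in both tags and tags per kb. Each group has 1 library, so no p-value was computed. Intervals are exact conditional binomial 95% intervals, were tested on simulated data and cover counting error only, since duplicate tags and the spread between cultures are not in them. The members and the 30 gene lists were chosen with earlier results of these data known. Listed genes were matched by RefSeq symbol or synonym, and 33 regions whose name RefSeq puts on another chromosome were left out of the lists. Named genes needed 50 tags in each library and a gene symbol that is not a predicted entry: the 12 highest and 12 lowest per kb, the 5 highest and 5 lowest by tags, the 5 densest in diluent, and up to 3 highest and 3 lowest per list. Other listed genes are named as pathway members or called regions, chosen after their values were seen. Promoter letters are RefSeq's, of GRCm38.p6, while regions are in mm9, and no coordinates were converted. Python 3.11.15, numpy 2.4.6, pandas 2.3.3 and scipy 1.17.1 were used. The alternatives tried were other scalings, distances, overlaps, tag minimums, widths and folds.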

Additional observations from a re-analysis of the deposited data

How the results depend on the processing

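No called region changed direction under another scaling. The 1.5-fold rule fixed this in advance, since the other scalings shift a ratio by less than that. With density-centred ratios 192 of the 287 higher regions and 65 of the 68 lower ones kept their call. Several list medians near 0 crossed it with density-centred ratios, as given with the lists. The median log2 ratio of tags, -0.05, was -0.023 scaled to total tags before filtering, -0.060 with midpoints within 500 bp, -0.041 within 2.5 kb and -0.084 over regions whose widths differed by at most 10%. The median per kb, -0.12, was -0.095 scaled to total tags, -0.13 with at least 50 tags in each library and -0.11 over the regions of like width. Both medians are 0 by construction in the median-centred and density-centred ratios. Shares here are of the regions in each alternative. The 287 higher regions (2.84%) became 447 when median-centred (4.42%), 75 of the 6051 regions of like width (1.24%) and 45 at 2-fold (0.445%). The 68 lower regions (0.673%) became 35 when median-centred (0.346%) and 43 of 9614 with at least 50 tags (0.447%). They became 28 among regions of like width (0.463%), 6 at 2-fold (0.0594%) and 127 when density-centred (1.26%), an alternative chosen after seeing the data. The higher count was 329 (3.26%) under total tags, 222 (2.74%) within 500 bp, 341 (3.04%) within 2.5 kb and 269 (2.68%) at 50% reciprocal overlap. It was 215 (2.24%) with at least 50 tags, 286 (2.83%) without IgG regions and 206 (2.04%) when density-centred. No paired analysis was possible because each group has 1 library, which also leaves nothing to leave out. The spread between cultures is not measured, so no ratio has an error beyond counting.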
